A study of Mus musculus with 29 samples.

Results

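The SoxB and SoxC genes encode transcription factors with an HMG box, a domain that bends DNA in its minor groove. Of the SoxB genes, Sox1, Sox2 and Sox3 (SoxB1) hold neural progenitors in an undifferentiated state, Sox2 is also needed in embryonic stem cells and in the prosensory cells of the inner ear that give rise to hair cells, and Sox21 (SoxB2) acts mainly as a repressor that opposes SoxB1 activity. The SoxC genes Sox4, Sox11 and Sox12 are switched on as neural progenitors begin to differentiate and promote neuronal gene expression. These 7 genes, of 22254 protein-coding genes on chromosomes 1 to 19 and X, were chosen by name, and every deposited summit (the position of highest signal in a peak) in their gene bodies or within 100 kb of them was counted in each of 9 peak lists. The windows covered 1.42 Mb, or 0.0539% of those chromosomes, and held 142 summits. Joined where their 300 bp windows overlapped, they made 63 sites, 22 of them near SoxB genes and 41 near SoxC genes.

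The peaks came from ChIP-seq, sequencing of DNA precipitated with a factor, for Atoh1, Pou4f3 and Gfi1, transcription factors of hair cell development. Mouse embryonic stem cell lines derived from the parental line A2loxCre carried a doxycycline-inducible transgene cassette that ended with the fluorescent protein mVenus. They held Atoh1 (iAtoh1), Pou4f3 (iPou4f3), Gfi1 and Atoh1 (iG+A), Gfi1 and Pou4f3 (iG+P), Pou4f3 and Atoh1 (iP+A) or all 3 genes (iGPA). All were grown as embryoid bodies, aggregates of differentiating stem cells, given doxycycline at 2 µg/ml from day 4 for 48 h, and collected on day 6, so no group was without transgene induction. The transgenes were forced on in embryoid body cells and not in inner ear cells. Antibodies to a FLAG tag on Atoh1, to a MYC tag on Pou4f3 and to Gfi1 itself were used. There were 17 ChIP libraries, 2 for each line and factor except Gfi1 with 1, and 12 input libraries. The authors merged replicates before calling peaks, so no value below has a spread between replicates and no p-value was computed. Intervals cover counting error only.

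The kept lists held 15568 to 26231 Atoh1 summits, 17082 to 32632 Pou4f3 summits and 3012 Gfi1 summits. Total read depth was not used here. The usual background under a peak, recovered from the peak values as fragments, was lowest for Gfi1, at 3.55, and ran from 5.87 to 8.30 elsewhere. The Gfi1 list, from 1 library, was also the shortest.

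The following sequences are those at the sites the results turn on, so that the binding words can be seen beside the values. Each site is named by the distance in kb of its strongest summit from the start of the gene, negative where it lies upstream. The plus strand of mm9 is shown around the summit, and capitals mark the words searched for. Sites bound by Atoh1 are shown with the E-box word CAGCTG or the word CAGATG, read on the other strand as CATCTG, short sites of the kind that bHLH factors such as Atoh1 recognise.
Sox4 -6.1 kb (chr13:29051608-29051758): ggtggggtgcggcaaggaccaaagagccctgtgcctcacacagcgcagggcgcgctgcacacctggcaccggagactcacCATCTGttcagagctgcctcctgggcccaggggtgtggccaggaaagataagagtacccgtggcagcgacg
Sox11 -48.0 kb (chr12:28075497-28075647): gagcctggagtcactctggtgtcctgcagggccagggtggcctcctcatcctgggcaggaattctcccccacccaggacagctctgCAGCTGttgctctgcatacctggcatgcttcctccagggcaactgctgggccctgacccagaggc
Sox12 +23.6 kb (chr2:152200152-152200302): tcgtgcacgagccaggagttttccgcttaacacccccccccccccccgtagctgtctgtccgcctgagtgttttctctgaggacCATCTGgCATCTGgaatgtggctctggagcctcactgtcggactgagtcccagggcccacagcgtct
Sox2 -20.4 kb (chr3:34528431-34528581): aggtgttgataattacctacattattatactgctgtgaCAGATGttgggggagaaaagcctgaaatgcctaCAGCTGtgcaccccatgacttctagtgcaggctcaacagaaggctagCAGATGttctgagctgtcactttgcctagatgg

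At the next sites, the strongest Pou4f3 sites of Sox4, Sox21 and Sox2, the capitals mark the word ATAATTAAT with at most 1 mismatch, an AT-rich sequence of the kind bound by POU4 factors. The Sox2 site is shown over 251 bases because its matches lay far from the summit, while the Sox4 -0.1 kb site, the strongest for Gfi1, is shown upstream of the gene start and holds none of the Gfi1 words given further on.
Sox4 +11.5 kb (chr13:29034024-29034174): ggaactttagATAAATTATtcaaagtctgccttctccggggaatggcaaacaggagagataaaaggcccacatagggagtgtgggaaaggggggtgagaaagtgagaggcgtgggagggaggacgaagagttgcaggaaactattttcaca
Sox21 +6.6 kb (chr14:118629572-118629722): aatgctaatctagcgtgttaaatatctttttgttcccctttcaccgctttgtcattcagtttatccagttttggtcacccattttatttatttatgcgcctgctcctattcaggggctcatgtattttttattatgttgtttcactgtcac
Sox2 +101.0 kb (chr3:34649800-34650050): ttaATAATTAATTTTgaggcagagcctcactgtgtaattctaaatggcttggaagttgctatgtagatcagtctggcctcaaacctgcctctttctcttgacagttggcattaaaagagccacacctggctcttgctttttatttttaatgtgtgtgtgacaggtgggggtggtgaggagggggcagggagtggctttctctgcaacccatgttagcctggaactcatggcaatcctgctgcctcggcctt
Sox4 -0.1 kb (chr13:29045604-29045754): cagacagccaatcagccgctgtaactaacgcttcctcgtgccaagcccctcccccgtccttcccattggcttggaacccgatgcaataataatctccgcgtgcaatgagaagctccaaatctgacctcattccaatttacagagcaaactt

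Summits near the SoxC genes outnumbered those near the SoxB genes in 7 of the 9 lists. Summed over the lists there were 53 near Sox12, 35 near Sox4, 15 near Sox2, 13 each near Sox11 and Sox21, 11 near Sox1 and 2 near Sox3. The median of all protein-coding genes was 20 summits, and 7.84% of them had at least as many as Sox12, 24.0% at least as many as Sox4 and 92.9% at least as many as Sox3. Sox12 and Sox4 were thus above the middle of all genes and the other 5 below it. The Sox12 window also held the starts of 9 other coding genes (among them Tbc1d20, Rbck1, Trib3, Nrsn2 and Zcchc3), that of Sox21 2 and that of Sox1 1, while those of Sox2, Sox3, Sox4 and Sox11 held none. Over all 63 sites, 45 had the start of their own SoxB or SoxC gene as the nearest coding start. Only 7 of the 19 sites near Sox12 and 0 of the 5 near Sox1 did. By annotation 32 sites were intergenic, 13 in introns and 18 in exons, and 12 lay within 1 kb of the start of their SoxB or SoxC gene.

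**Figure D1:**
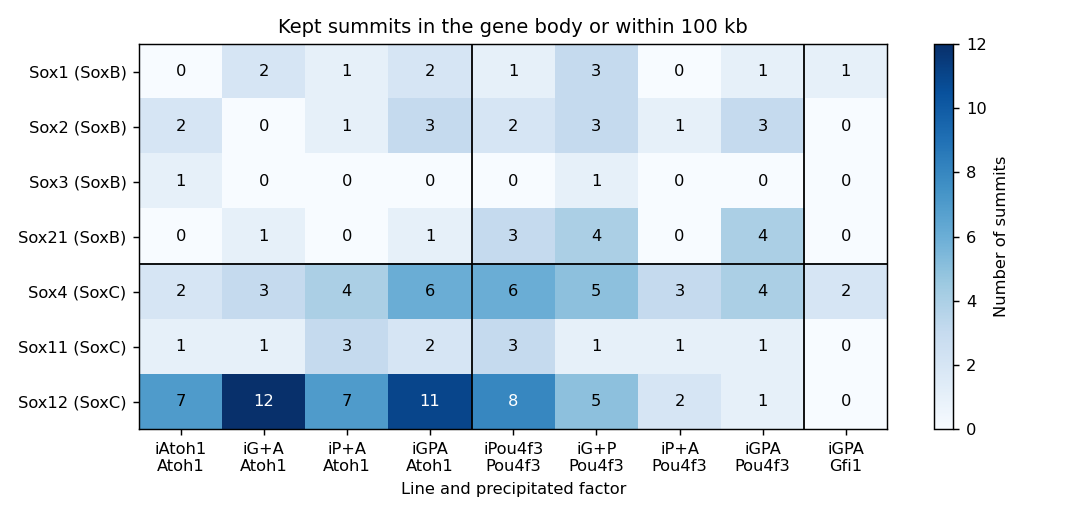
Number of kept summits in the body of each gene or within 100 kb of it, by line and precipitated factor, with darker cells for more summits. Sox12 held 7 to 12 in the Atoh1 lists, and Sox3 held no more than 1 in any list.

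Of the 7 genes, 5 had an Atoh1 summit in iAtoh1 and 5 in iG+A, and 5 in iP+A and 6 in iGPA, where 67.7%, 77.9%, 75.7% and 81.7% of all coding genes had one. For Pou4f3 the numbers were 6 in iPou4f3 and 7 in iG+P, and 4 in iP+A and 6 in iGPA, beside 84.1%, 88.1%, 74.3% and 78.5% of all genes. A Gfi1 summit was found near 2 of the 7, Sox1 and Sox4, beside 34.2% of all genes. Most coding genes had a summit in each Atoh1 and Pou4f3 list, so having one did not set the 7 genes apart.

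Over all 7 windows, summits per Mb divided by the genome mean were 1.55 for Atoh1 in iAtoh1 (exact Clopper-Pearson 95% interval 0.825 to 2.65) and 1.72 in iG+A (1.04 to 2.68), with 1.57 in iP+A (0.896 to 2.54) and 1.77 in iGPA (1.14 to 2.61). For Pou4f3 they were 1.90 in iPou4f3 (1.21 to 2.85) and 1.25 in iG+P (0.784 to 1.89), with 0.761 in iP+A (0.306 to 1.57) and 1.38 in iGPA (0.757 to 2.32), and for Gfi1 1.85 (0.382 to 5.41). The interval lay above 1 in iG+A, iPou4f3 and the iGPA Atoh1 list. The genome mean takes in stretches far from genes, and densities near other coding genes were not set beside these. By summits per gene over the 9 lists, the median was 13 for the 7 genes and 20 for all coding genes. With peaks of −log10 p of at least 10 alone the densities were 0.872 in iG+A (3 summits) and 1.01 in iPou4f3 (5 summits). So few summits do not decide whether the values above the genome mean rested on weaker peaks. Reduced to its 15568 strongest peaks, iG+A had a density of 1.55 (13 summits) and iPou4f3 one of 1.19 (10 summits). At −log10 p of at least 10 the iGPA Atoh1 density was 1.65 (10 summits). Densities also fell with the width of the window, from 1.497 to 2.93 over the 9 lists at 50 kb on each side to 0.767 to 1.25 at 200 kb. With all called peaks the iP+A Pou4f3 list, the only one below the genome mean, rose from 7 to 15 summits and to a density of 1.12. Near the SoxC genes alone the Atoh1 density was 2.78 in iAtoh1 (1.33 to 5.11) and 3.37 in iG+A (1.93 to 5.47), with 3.19 in iP+A (1.75 to 5.36) and 3.13 in iGPA (1.88 to 4.89). Near the SoxB genes it was 0.627 (0.129 to 1.83), 0.476 (0.0981 to 1.39), 0.343 (0.0416 to 1.24) and 0.743 (0.273 to 1.62) in the same order. The Atoh1 intervals of the SoxC genes lay above the genome mean in all 4 lists, and those of the SoxB genes spanned it. They were separate in iG+A, iP+A and iGPA and overlapped in iAtoh1. These intervals count each summit as independent, but summits of a gene can lie together. In iG+A 12 of the 16 SoxC summits were near Sox12, so the intervals do not measure a spread between genes.

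Sox12 held 37 of the 59 SoxC summits for Atoh1. With Sox4 and Sox11 alone the Atoh1 density was 1.25 in iAtoh1 (0.258 to 3.66) and 1.27 in iG+A (0.345 to 3.24), with 2.40 in iP+A (0.965 to 4.94) and 1.98 in iGPA (0.855 to 3.90), and every interval spanned the genome mean. For Pou4f3 the SoxC density was 3.27 in iPou4f3 (1.91 to 5.24) but 1.46 in iG+P (0.727 to 2.61), with 1.52 in iP+A (0.557 to 3.30) and 1.38 in iGPA (0.507 to 3.01). The iPou4f3 value came from 8 summits near Sox12, 6 near Sox4 and 3 near Sox11, and without Sox12 it was 2.60 (1.19 to 4.94). The SoxB density of Pou4f3 ran from 0.190 in iP+A (1 summit, 0.00482 to 1.06) to 1.39 in iGPA (8 summits, 0.599 to 2.73), and its intervals spanned the genome mean in each list.

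**Figure D2:**
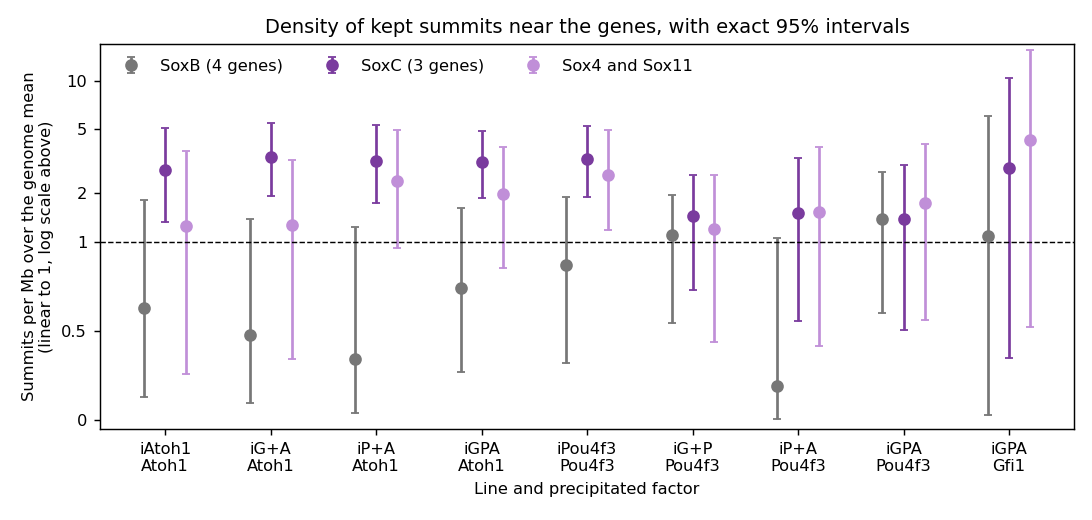
Kept summits per Mb near the SoxB genes, the SoxC genes, and Sox4 and Sox11 alone, divided by the genome mean (dashed line at 1), with exact 95% intervals that cover counting error only. The axis is linear to 1 and logarithmic above. In the 4 Atoh1 lists the SoxC values lie at 2.78 to 3.37 and the SoxB values at 0.343 to 0.743, and the values without Sox12 fall between 1.25 and 2.40.

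Among the kept summits, 6 Atoh1 sites were present in all 4 Atoh1 lists, and 4 of these lay in the Sox12 window. Joined over the Atoh1 lists alone there were 37 Atoh1 sites, of which 6 were in all 4 Atoh1 lists (16.2%, 6.19 to 32.0), where 10.4% of all Atoh1 sites were. A site of this kind lay near Sox4, Sox11 and Sox12, or 3 of the 7 genes, and 44.9% of all coding genes had one, so the number is near the background. The single such site of Sox4, Sox4 -6.1 kb, lies in an intergenic stretch upstream (mm9 chr13:29051509-29051848). Its fold enrichment, the authors' ratio of ChIP fragments at the summit to local background, was 4.40 in iAtoh1 and 5.07 in iG+A, and 5.51 in iP+A and 9.97 in iGPA. These folds rested on 35, 37, 51 and 80 fragments. The iGPA fold was the highest at any of the 63 sites in any list and stood above 96.2% of its list or level with it. Its counting interval, 7.93 to 12.4, lay above those of iAtoh1 (3.10 to 6.07), iG+A (3.61 to 6.94) and iP+A (4.13 to 7.21). The site was named for its highest fold, so that interval belongs to a value picked as the largest. It was also high in the other lists, at or above 85.4% of iAtoh1, 88.8% of iG+A and 91.9% of iP+A. Median folds of the whole lists were 3.45 in iGPA and 3.12 to 3.20 in the other Atoh1 lists.

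The Sox11 -48.0 kb site, also intergenic (chr12:28075414-28075752), had a fold of 3.79 in iAtoh1 and 3.34 in iG+A, and 5.27 in iP+A and 4.55 in iGPA. At this site iP+A was highest, with 48 fragments, and the counting intervals of all 4 lists overlapped (2.19 to 4.90 in iG+A, 3.91 to 6.95 in iP+A). At the Sox12 +23.6 kb site (chr2:152200061-152200396), which lies in an intron of Nrsn2 and nearer to its start, the fold was 3.91 in iAtoh1 and 5.21 in iG+A, and 3.66 in iP+A and 6.15 in iGPA. Both lines with Gfi1 were above both lines without it there, but the interval of iGPA (4.58 to 8.10) overlapped those of iAtoh1 (2.70 to 5.50) and iP+A (2.55 to 5.09).

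The Sox12 gene itself held the site found in most lists. Sox12 +0.8 kb (chr2:152222289-152223209), in the coding exon, joined 10 summits from 7 lists, and its highest Atoh1 folds were 3.54 in iAtoh1 and 3.47 in iG+A, and 4.20 in iP+A and 5.54 in iGPA. Its Pou4f3 folds were 2.68 in iPou4f3, 2.74 in iG+P and 2.83 in iP+A, while iGPA had no Pou4f3 summit there. The joined summits were spread, with those of Pou4f3 at 152222800 to 152222845 and the highest of Atoh1 at 152223004 to 152223060. The other Atoh1 sites in all 4 lists, named here after their values were seen, were Sox12 +104.0 kb, in a coding exon of Tbc1d20 (3.42, 3.47, 3.76 and 3.21), and Sox12 -13.2 kb, nearest to Zcchc3 (3.42, 3.34, 3.66 and 2.98). Their folds stayed between 2.98 and 3.76 in every line, unlike that of Sox4 -6.1 kb. The summits joined at Sox12 -13.2 kb were spread, with iAtoh1 at position 152236686 and iGPA at 152236978. With sites of 100 bp, 5 sites near the genes were in all 4 Atoh1 lists.

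**Figure D3:**
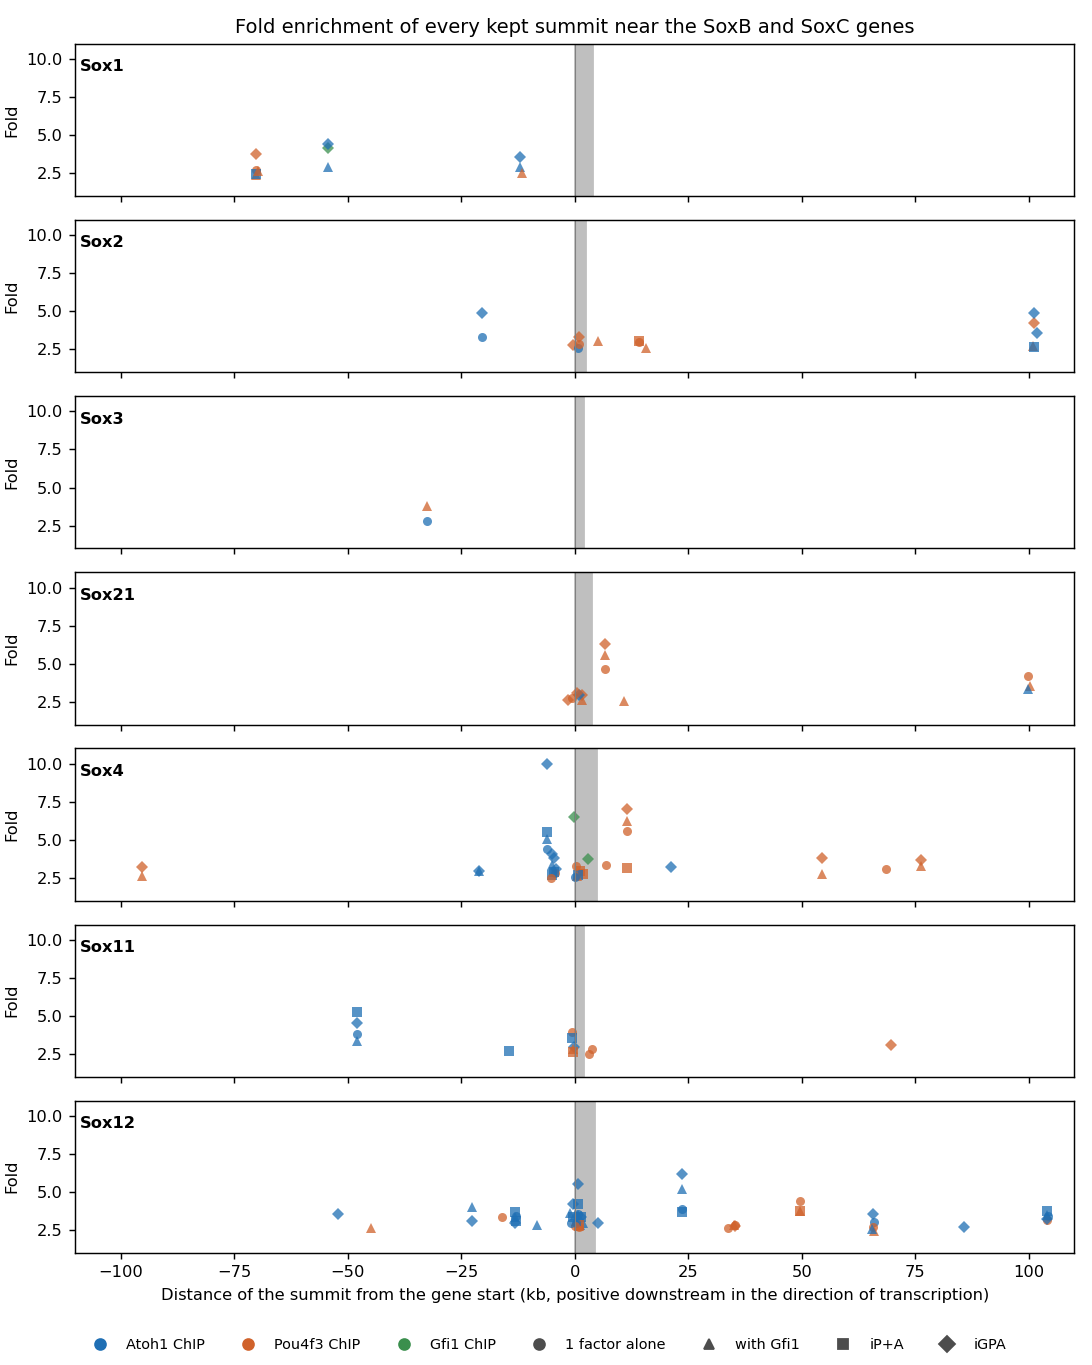
Fold enrichment (y axis) of each of the 142 kept summits against its distance from the gene start in kb (x axis), with the gene body in grey, colours for the factor and symbols for the line. Most points lie below a fold of 4, and the highest are Atoh1 in iGPA at Sox4 -6.1 kb (9.97) and Pou4f3 in iGPA at Sox4 +11.5 kb (6.99).

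Of the 10 SoxB sites with Atoh1, none was in 3 or 4 Atoh1 lists. Sox2 -20.4 kb (chr3:34528356-34528665), in an intron of the long non-coding gene Sox2ot that spans Sox2, had a fold of 3.30 in iAtoh1 (26 fragments) and 4.92 in iGPA (39 fragments) and no summit in iG+A or iP+A. Sox2 +101.0 kb (chr3:34649646-34650074) held Atoh1 in iP+A (2.69) and iGPA (4.92) and Pou4f3 in iG+P (2.74) and iGPA (4.22). It was the only site near the 7 genes at which Atoh1 and Pou4f3 summits of iGPA were joined. Enhancers used in embryonic stem cells are known far downstream of Sox2, and overlap with them was not tested.

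Sox1 is not named in the annotation used and was placed by the unique match of its RefSeq promoter sequence to chromosome 8, inside the coding gene model Gm5607. All 5 of its sites were intergenic and upstream, and each was nearer to the start of Gm5607 or A230072I06Rik than to that of Sox1. Sox1 -70.1 kb, the strongest Pou4f3 site of Sox1, had folds of 2.73 in iPou4f3, 2.41 in iG+P and 3.79 in iGPA, with Atoh1 at 2.47 in iP+A.

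Sox3 had a single site, Sox3 -32.5 kb (chrX:58178971-58179281), with Atoh1 in iAtoh1 at a fold of 2.79 and Pou4f3 in iG+P at 3.76. The local background at the site was high, at 11.5 fragments in iG+P against the usual 8.14. Peaks that the authors called but did not keep lay at the same place in iG+A (4.41), iP+A (3.87) and iGPA (4.68) for Atoh1 and in iP+A for Pou4f3 (3.40). With all called peaks this was therefore an Atoh1 site in 4 of 4 lists near a SoxB gene. The filter behind the kept lists was not given in the sources used here.

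Sox21 had mostly Pou4f3 sites. Of its 8 sites 7 held Pou4f3 and 2 held Atoh1, and its Pou4f3 summits numbered 3 in iPou4f3, 4 each in iG+P and iGPA, and 0 in iP+A. Sox21 +6.6 kb (chr14:118629497-118629834), downstream of the gene, had a fold of 4.64 in iPou4f3 (38 fragments), 5.58 in iG+P (50) and 6.26 in iGPA (42). Its counting intervals overlapped (3.32 to 6.32, 4.17 to 7.32 and 4.55 to 8.41), and iP+A had neither a kept nor a called peak there. The strongest Atoh1 site in the window, Sox21 +99.7 kb (fold 3.34 in iG+A), was in a coding exon of Gpr180, 165 bp from its start, and Pou4f3 was present there in iPou4f3 (4.16) and iG+P (3.50).

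Within 100 kb of the genes 1 Pou4f3 site, near Sox4, was in all 4 Pou4f3 lists, and with 200 kb on each side there were 6, of which 2 were near SoxB genes. At Sox4 +11.5 kb (chr13:29033874-29034248), intergenic and downstream of the gene, the fold was 5.59 in iPou4f3 and 6.24 in iG+P, and 3.17 in iP+A and 6.99 in iGPA, on 46, 56, 27 and 47 fragments. The iP+A interval (2.13 to 4.56) lay below those of iG+P (4.74 to 8.07) and iGPA (5.17 to 9.25) and overlapped that of iPou4f3 (4.12 to 7.41). Of 43 Pou4f3 sites this 1 was 2.33% (0.0589 to 12.3), below the 14.5% of all Pou4f3 sites that were in all 4 lists. By gene it was 1 of 7, where 51.9% of all coding genes had such a site within 100 kb.

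**Figure D4:**
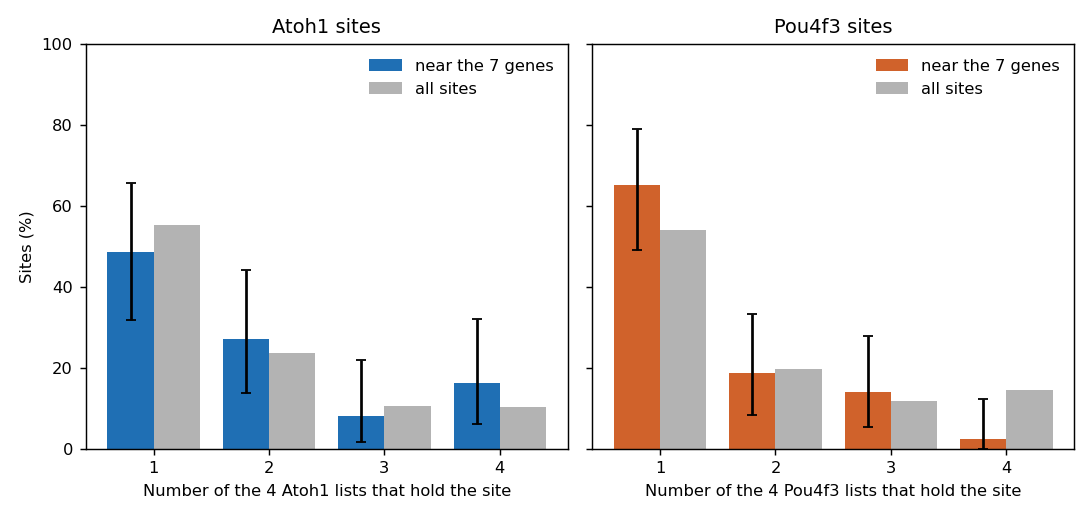
Percentage of Atoh1 sites (left) and Pou4f3 sites (right) found in 1, 2, 3 or 4 of the 4 lists of that factor, near the 7 genes (coloured, with exact 95% intervals) and over the whole genome (grey). Near the genes 16.2% of Atoh1 sites and 2.33% of Pou4f3 sites were in all 4 lists, beside 10.4% and 14.5% over the genome.

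At Sox11 the strongest Pou4f3 site was Sox11 -0.5 kb (chr12:28027672-28028334), just upstream of the start. Pou4f3 was at 3.92 in iPou4f3, 2.85 in iG+P and 2.60 in iP+A, and Atoh1 at 3.55 in iP+A and 2.95 in iGPA, so that both factors had a summit there in iP+A. At Sox12 it was Sox12 +49.6 kb (chr2:152173986-152174317), in an intron of the non-coding gene Gm14164 and nearest to Trib3, at 4.40 in iPou4f3, 3.72 in iG+P and 3.74 in iP+A, with no summit in iGPA. Pou4f3 summits near Sox12 numbered 8 in iPou4f3 and 5 in iG+P but 2 in iP+A and 1 in iGPA, whereas Atoh1 summits numbered 7 or more in every line. The Pou4f3 lists differed in length, and with each list reduced to its 15568 strongest peaks the Sox12 numbers were 3, 1, 2 and 0 in the same order, while those of Atoh1 were 6 to 9. With −log10 p of at least 10 they were 1, 1, 1 and 0 for Pou4f3, too few to show whether the difference between lines was kept.

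Gfi1 had 3 summits near the genes. The strongest was at the Sox4 promoter, Sox4 -0.1 kb (chr13:29045238-29045828), with a fold of 6.49 on 37 fragments (4.62 to 8.88), at or above 84.6% of the Gfi1 list. Atoh1 in iAtoh1 (2.57) and Pou4f3 in iPou4f3 (3.26) had weak summits at the same site, but no kept Atoh1 or Pou4f3 summit of iGPA joined it. Pou4f3 peaks called but not kept also lay there, in iPou4f3 (2.25), iG+P (2.52) and iP+A (2.94). A second Gfi1 summit, Sox4 +3.0 kb (3.74, 16 fragments), was in the coding exon of Sox4, and the last was near Sox1.

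**Figure D5:**
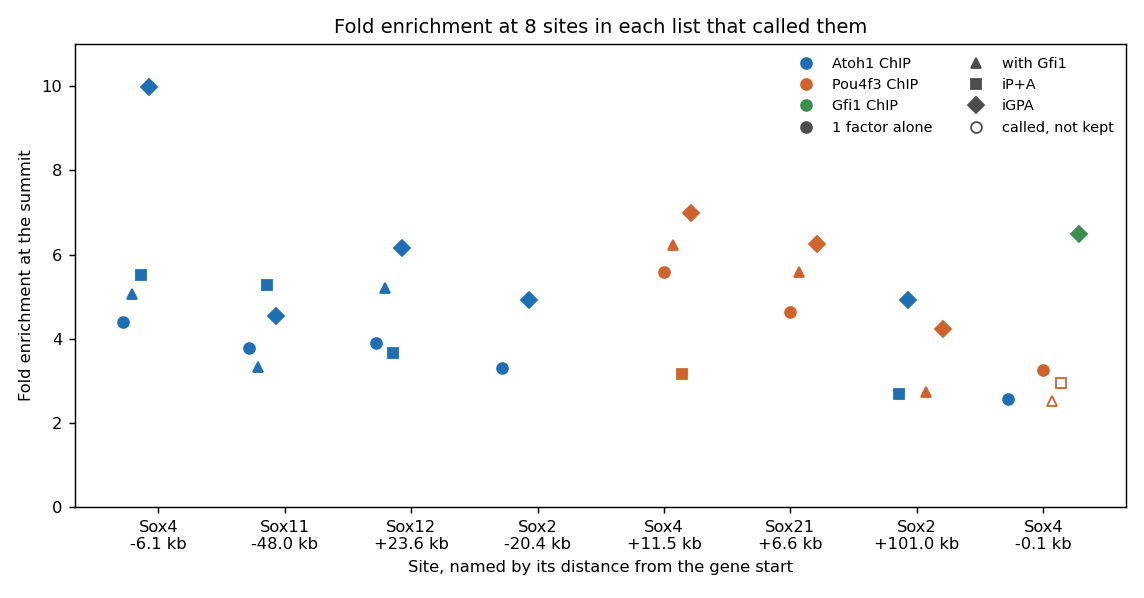
Fold enrichment (y axis) at the 8 sites whose sequences are printed (x axis), in each list that called a peak there, with colours for the factor, symbols for the line and open symbols for called peaks that were not kept. At Sox4 -6.1 kb the iGPA Atoh1 value (9.97) stands above the other 3 (4.40 to 5.51), and at Sox4 +11.5 kb the iP+A Pou4f3 value (3.17) stands below the other 3 (5.59 to 6.99).

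Compared line with line, the shares of Atoh1 sites near the genes that recurred in another line lay close to those of the genome, with the genome value inside the interval for each of the 12 directed pairs of Atoh1 lists. Of 13 iAtoh1 sites, 8 had an iGPA summit (61.5%, 31.6 to 86.1, beside 52.6% of all iAtoh1 sites), 8 an iG+A summit (61.5%, beside 52.0%) and 6 an iP+A summit (46.2%, 19.2 to 74.9, beside 49.7%). Of 18 iG+A sites, 13 had an iGPA summit (72.2%, 46.5 to 90.3, beside 53.0%), 8 an iAtoh1 summit (44.4%, 21.5 to 69.2, beside 39.5%) and 8 an iP+A summit (44.4%, beside 38.7%). Of 15 iP+A sites, 11 had an iGPA summit (73.3%, 44.9 to 92.2, beside 57.7%), 8 an iG+A summit (53.3%, 26.6 to 78.7, beside 41.7%) and 6 an iAtoh1 summit (interval 16.3 to 67.7%, beside 40.6%). The 25 iGPA sites were the most, and 17 of them had no counterpart in iAtoh1. In that direction 8 were shared with iAtoh1 (32.0%, 14.9 to 53.5, beside 31.1%), 13 with iG+A (52.0%, 31.3 to 72.2, beside 41.3%) and 11 with iP+A (44.0%, 24.4 to 65.1, beside 41.7%).

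For Pou4f3 the share was below that of the genome in 11 of the 12 directed pairs, and in 3 of them the whole interval was. Of 23 iPou4f3 sites, 5 had an iGPA summit (21.7%, 7.46 to 43.7, beside 49.0% of all iPou4f3 sites), 8 an iG+P summit (34.8%, 16.4 to 57.3, beside 61.9%) and 5 an iP+A summit (21.7%, beside 43.6%). Of 14 iGPA sites, 1 had an iP+A summit (7.14%, 0.181 to 33.9, beside 48.5%), 5 an iPou4f3 summit (35.7%, 12.8 to 64.9, beside 58.6%) and 9 an iG+P summit (64.3%, 35.1 to 87.2, beside 71.2%). The intervals below the genome were those of iPou4f3 sites in iGPA and in iG+P, and of iGPA sites in iP+A. The first of these intervals stayed below the same 49.0% under some other settings. Its upper end was 47.6 with 50 kb on each side and 45.4 with 100 kb around the gene start. It was 39.4 with all called peaks and 38.8 with sites of 100 bp. Under the remaining settings the interval reached above 49.0%. With 200 kb on each side 11 of 30 iPou4f3 sites had an iGPA summit (36.7%, 19.9 to 56.1). At equal list length 2 of 10 did (20%, 2.52 to 55.6), with −log10 p of at least 10 2 of 5 (5.27 to 85.3), and with sites of 1000 bp 6 of 20 (11.9 to 54.3). Genome shares at these settings are not set beside them, and fewer sites give a wider interval. These settings therefore do not decide whether the lower share holds. The other pair of intervals was not recomputed under alternatives. Of 22 iG+P sites, 9 had an iGPA summit (40.9%, 20.7 to 63.6, beside 41.4%), 8 an iPou4f3 summit (36.4%, 17.2 to 59.3, beside 43.0%) and 4 an iP+A summit (18.2%, 5.19 to 40.3, beside 34.4%). Of 7 iP+A sites, 5 had an iPou4f3 summit (71.4%, 29.0 to 96.3, beside 57.5%), 4 an iG+P summit (57.1%, 18.4 to 90.1, beside 65.3%) and 1 an iGPA summit (14.3%, 0.361 to 57.9, beside 53.5%).

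The Pou4f3 peaks near the genes were also weak within their lists. The median one was at or above 22.7% of the iPou4f3 list and 31.0% of iG+P, and 37.3% of iP+A and 19.7% of iGPA, while the 4 Atoh1 medians were at 53.5% to 60.6%. The part of peak strength in the lower sharing was not tested.

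Sites of Atoh1 and of Pou4f3 were then compared within a line. In iGPA 1 of 25 Atoh1 sites held a Pou4f3 summit (4.00%, 0.101 to 20.4), beside 15.2% of all sites, and 1 of 14 Pou4f3 sites held an Atoh1 summit (7.14%, beside 21.0%). In iP+A 2 of 15 Atoh1 sites held Pou4f3 (13.3%, 1.66 to 40.5), beside 23.0%, and 2 of 7 Pou4f3 sites held Atoh1 (28.6%, 3.67 to 71.0, beside 25.4%). All 4 intervals include the genome value. Of the 3 Gfi1 sites 1 held an iGPA Atoh1 summit, beside 43.3% of all Gfi1 sites, and none held Pou4f3 (0 to 70.8), beside 23.6%. In the other direction 1 of 25 iGPA Atoh1 sites held Gfi1 (4.00%, beside 5.0%), and 0 of 14 iGPA Pou4f3 sites did (0 to 23.2, beside 3.77%).

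Sites near the genes were compared with all sites in position and base composition. Of the 63, 15 lay within 1 kb of a coding start (23.8%, 14.0 to 36.2), beside 15.7% of all 78333 sites. For Atoh1 sites it was 35.1% (20.2 to 52.5), beside 17.6%, and for Pou4f3 sites 30.2% (17.2 to 46.1), beside 17.1%. The median G and C content of the 250 bp around the summit was 62.8% at Atoh1 sites near the genes and 50.8% at all Atoh1 sites, and 53.2% and 43.2% for Pou4f3.

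CAGCTG or CAGATG stood within 250 bp centred on the summit at 23 of 37 Atoh1 sites (62.2%, 44.8 to 77.5), 61.5% of all Atoh1 sites, and 25.7% of windows 1000 bp to each side of the 37 sites. The longer AtEAM, the E-box motif defined for Atoh1, was at 7 of 37 (18.9%, 7.96 to 35.2), beside 14.8% of all Atoh1 sites and 1.35% of those flanks. It was present at Sox4 -6.1 kb, Sox12 +23.6 kb and Sox2 -20.4 kb, and Sox11 -48.0 kb had a CAGCTG outside any AtEAM match. None of the 43 Pou4f3 sites held an AtEAM (0 to 8.22%), beside 2.50% of all Pou4f3 sites.

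ATAATTAAT with at most 1 mismatch was at 11 of 43 Pou4f3 sites (25.6%, 13.5 to 41.2), beside 37.5% of all Pou4f3 sites and 5.81% of the flanks. Sox4 +11.5 kb had 1 match, and Sox12 +49.6 kb and Sox2 +101.0 kb had 2 each, whereas Sox21 +6.6 kb had none. The Gfi1 words AATCACAGC and AATCACTGC were at none of the 3 Gfi1 sites, which allows a share of up to 70.8%, and at 6.91% of all Gfi1 sites. A match or its absence describes these windows and no more.

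Other Sox genes and proneural genes gave a scale for these numbers. Over the 9 lists the median was 13 summits for the 7 SoxB and SoxC genes (2 to 53), 24 for 12 other Sox genes (8 to 79) and 14.5 for 10 proneural bHLH genes (1 to 69), beside 20 for all coding genes. In the iGPA Atoh1 list the medians were 2, 5 and 1.5, beside 3. The highest in the other sets were Sox6 with 79, Atoh8 with 69 and Sox5 with 61 summits, more than Sox12. Median gene bodies were 3.80, 6.30 and 3.14 kb in these sets, and longer genes have longer windows.

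Of the 7 genes, Sox4 and Sox12 had enough summits (20 or more) for their pattern over the lists to be set beside that of other genes. On the square root of summits per 10000 summits of each list, the genes on other chromosomes most like Sox4 over the 9 lists were Slc25a30 (Pearson r = 0.99, across lists) and Cdk4 (r = 0.99). Kif5a was most like Sox12 (r = 0.99). Among 11594 genes compared, 317 had r of at least 0.9 with Sox4 and 464 with Sox12, so such likeness was common. The points of a line share its input libraries, and lists of a factor share an antibody.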

How the data were processed

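Per the labels and the study's methods, the authors trimmed reads, aligned them to mm9 with Bowtie2, took out duplicates and poorly mapped or blacklisted reads, and ran MACS2 on replicates merged beforehand, with merged inputs as control. The deposited peak values used here are a fold enrichment, the ratio to local background at the summit, and its −log10 p. The deposited summit lists name the kept peaks (their signal column was not used). Kept summits were counted for each of 22254 protein-coding genes of GENCODE vM1 on NCBIM37, the assembly of mm9. Sox1 was placed by its RefSeq promoter (300 bases, 1 match in its chromosome). Summits whose 300 bp windows overlapped by at least 1 bp made a site. Fragments were recovered as the whole number that gives both the fold and −log10 p (tolerance 0.001), for all 142 summits near the genes, with exact Poisson 95% intervals. A summit is by choice the highest point of its peak, and intervals cover counting error only. Shares have exact Clopper-Pearson 95% intervals. Patterns were searched on both strands in 250 bp around the summit. An AtEAM match contains an E-box. Printed sequences are from the mm9 assembly. For each gene the text names the site of highest fold for Atoh1, Pou4f3 and Gfi1 and any site in 6 or more lists, 15 in all. A site and a gene that the rules would name are not reported here. Genes, lists of comparison genes and rules were chosen with earlier results of these data known. No test was run, because replicates were merged before peak calling. Scripts tested on simulated data returned the planted values in 5 of 5 checks. Python 3.11.15, numpy 2.4.6, pandas 2.3.3, scipy 1.17.1 and pysam 0.24.0 were used. Other windows, peak thresholds, list lengths, site lengths and patterns were tried as alternatives.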

Additional observations from a re-analysis of the deposited data

Results flagged for a closer look

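In the iP+A Pou4f3 list, 8 of the 15 called peaks near the 7 genes were missing from the kept summits (53.3%, exact Clopper-Pearson 95% interval 26.6 to 78.7), beside 31.5% of that whole list. They were flagged because they are signal outside the summits used above and exceed the 3 counts that a count of 0 allows. Of these peaks 3 lay at Sox11, 2 at Sox21, and 1 each at Sox4, Sox12 and Sox3, with folds of 2.35 to 3.40. In each of the other 8 lists 0 to 3 called peaks near the genes were left out.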

How the results depend on the processing

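No paired analysis was possible because the authors merged replicates before calling peaks, and leaving out a replicate was not possible for the same reason. With peaks of −log10 p of at least 10 only, densities over the genome mean near the 7 genes were 0.872 in iG+A (3 summits) and 0.748 in iG+P (4). They were 0.544 for Pou4f3 in iGPA (3) and 1.01 in iPou4f3 (5). The first 3 values were below the genome mean, but on few summits and without intervals, so a fall below it is not shown. For Atoh1 in iGPA the density was 1.65 at that threshold. That setting gave 100% for iAtoh1 sites with an iGPA Atoh1 summit (3 of 3), 66.7% for iGPA Pou4f3 sites with an iPou4f3 summit (2 of 3), 0% for Gfi1 sites with an Atoh1 summit (0 of 1), and 2 sites in all 4 Atoh1 lists and 0 in all 4 Pou4f3 lists. The iPou4f3 density was 2.93 with 50 kb on each side and 1.19 at equal list length. With 50 kb the iAtoh1 density was 2.58 and the iP+A Pou4f3 density 1.497. With 200 kb iAtoh1 was at 0.902 and Gfi1 at 0.935, below the genome mean, as were iG+P and the iGPA Pou4f3 list at equal length, both at 0.834. The share of iGPA Atoh1 sites with a Pou4f3 summit was 0% with 50 kb on each side and 0% with 100 kb around the gene start, and Gfi1 sites with an Atoh1 summit were 0% with 50 kb. With 200 kb there were 6 sites in all 4 Pou4f3 lists. Patterns gave 62.2% of Atoh1 sites with the shorter E-box words and 9.30% of Pou4f3 sites with no mismatch. The cause of these changes was not tested, beyond the fewer peaks that a stricter threshold leaves. With all called peaks the iP+A Pou4f3 density went from 0.761 to 1.12 and its summits from 7 to 15. Sites of 100 bp or 1000 bp left 8 shares and site counts each within the interval of the value reported, or within 1.5 times of the count. The alternatives for sites in all 4 lists, for Sox4 and Sox11 alone, and for a genome mean without chromosomes 4 and 14 (9 densities within their intervals) were chosen after seeing the data.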
